A study of Arabidopsis thaliana with 4 samples.

Results

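The effect of losing EIN5 and SKI2 on small RNAs was examined in Arabidopsis plants that also lacked RDR6, by setting the rdr6-11 ein5-1 ski2-3 library (the triple mutant) against the rdr6-11 library. These are 2 of the 4 libraries of the series, and every one of the 33602 loci in the deposited count table was compared. The triple mutant carries the alleles rdr6-11, ein5-1 and ski2-3, and rdr6-11 carries only the first, so both libraries share the rdr6-11 mutation. A second pair, ein5-1 ski2-3 (the double mutant) against the wild type Col-0, served to show the same decay mutations where RDR6 is intact. All plants were 18 days old, grown at 22 °C with 16 h of light and 8 h of dark, and RNA below 200 nt was isolated from their aerial parts. There was 1 library for each genotype, so the spread between replicates is unknown and differences are described without tests or p-values. The number of plants behind a library is not given in the sources used here.

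EIN5, also named XRN4, is a cytoplasmic exonuclease that degrades mRNA from its 5′ end. SKI2 is a helicase that feeds RNA to the cytoplasmic exosome, which degrades it from the 3′ end. RDR6 is an RNA-dependent RNA polymerase that copies single-stranded transcripts into double-stranded RNA, from which Dicer enzymes cut secondary small interfering RNAs (siRNAs), and among its natural substrates are the TAS transcripts, which are first cut by a microRNA (miRNA). In plants impaired in both decay directions, coding transcripts are known to become sources of siRNAs made through RDR6.

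The sequences below are those on which the miRNA results turn, copied from the RefSeq annotation of the TAIR10.1 genome. They are written 5′ to 3′ with the seed (bases 2 to 8) in capitals. Families of the first pair had more reads in the triple mutant than in rdr6-11. Those of the next 4 had the lowest ratios among abundant families, and the last 3 sequences have sites in transcripts described further on. Reads were counted per miRNA gene and summed by family, not per mature sequence.
ath-miR168a-5p: uCGCUUGGugcaggucgggaa
ath-miR390a-5p: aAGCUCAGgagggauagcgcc
ath-miR158a-3p: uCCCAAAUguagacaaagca
ath-miR173-5p: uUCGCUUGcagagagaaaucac
ath-miR161.2: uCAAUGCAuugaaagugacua
ath-miR167a-5p: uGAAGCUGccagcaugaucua
ath-miR403-3p: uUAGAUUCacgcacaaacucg
ath-miR400: uAUGAGAGuauuauaagucac
ath-miR399a: uGCCAAAGgagauuugcccug

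The sites in transcripts are written as DNA on the transcript strand, with capitals at bases that do not pair with the miRNA. The first 3 belong to loci with fewer reads in the triple mutant, and the last pair belongs to loci with more.
AT1G06580 site of ath-miR400: gtgacttataatactctcata
AT5G41170 site of ath-miR161.2: taAtcactttcaatgcattga
AGO2 site of ath-miR403-3p: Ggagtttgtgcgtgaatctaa
PHO2 site of ath-miR399a: TagggcaaatctTctttggca
ADC1 site of ath-miR172b-5p: gAgaatcttTatggtgctgc

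The table held 877589 reads for the triple mutant and 878632 for rdr6-11, and 621515 for the double mutant and 808276 for Col-0. Counts were scaled to these totals as RPM, reads per 1000000 reads of the library, at which 1 read was worth 1.14 RPM in both rdr6-11 backgrounds. Transcripts of the mutated genes left too few reads to check the genotype labels, with 4 and 0 reads at EIN5, 3 and 3 at SKI2 and 2 and 0 at RDR6 in the triple mutant and rdr6-11. Leaf markers were present, with 133 reads at RCA in the triple mutant and 38 in rdr6-11. Of the 4 root markers only PYK10 had reads, 20 in the triple mutant and 14 in rdr6-11, while the 5 flower markers together had 1 and 2 reads. In such bulk tissue, fewer cells of a type and less RNA per cell cannot be told apart.

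Reads at protein-coding genes took a larger share of the triple mutant library and reads at miRNA genes a smaller one. Protein-coding loci held 16.6% of reads in the triple mutant (95% interval 16.49 to 16.64) and 10.1% in rdr6-11 (9.996 to 10.12), a ratio of 1.65. Genes for miRNAs held 31.2% in the triple mutant and 45.5% in rdr6-11, a ratio of 0.685 (0.682 to 0.688). All intervals are exact and cover counting error only, since PCR copies are not independent molecules. A share depends on every other share, so a larger share of one class and a smaller share of another cannot be told apart from each other within these totals.

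The protein-coding share rested partly on a pair of very abundant loci. LHCA4, a light-harvesting protein of photosystem I, had 13854 reads in the triple mutant and 5519 in rdr6-11, and its gene overlaps AT3G47460, whose reads could not be separated from it. TIM10 went the other way, with 8480 reads in the triple mutant and 13466 in rdr6-11. Its gene overlaps 3 other annotated genes, whose reads could not be separated from it either. Without both loci the ratio of protein-coding shares was 1.78. Reads outside the called loci were more numerous too: protein-coding loci that were neither called nor in this pair held 12.5% of reads in the triple mutant and 7.66% in rdr6-11.

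**Figure D1:**
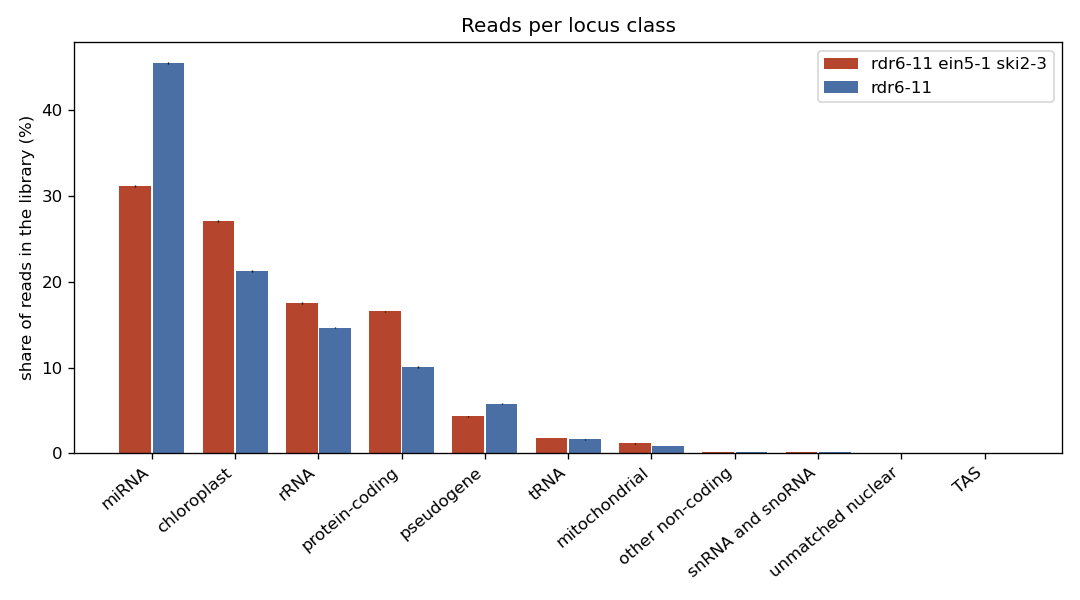
Share of reads (%) in each class of locus, with rdr6-11 ein5-1 ski2-3 to the left of rdr6-11; thin bars are exact 95% counting intervals. miRNA genes held 31.2% and 45.5% of reads, protein-coding genes 16.6% and 10.1%, and chloroplast loci 27.1% and 21.2%.

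Organelle and structural RNA differed less. Chloroplast loci held 27.1% of reads in the triple mutant and 21.2% in rdr6-11, yet the median log2 fold of the 76 chloroplast loci with at least 50 reads was -0.08, so the larger share came with no shift of the typical locus. Under totals without miRNA, TAS, organelle, rRNA and tRNA loci the log2 ratios of chloroplast and ribosomal RNA turned to -0.046 and -0.14. Ribosomal RNA held 17.5% and 14.7%, and mitochondrial loci 1.14% and 0.857%, in the triple mutant and rdr6-11. Pseudogenes, a class that here includes transposon-derived genes, held 4.29% in the triple mutant and 5.76% in rdr6-11, but their log2 ratio turned to 0.12 when scaled to miRNA reads. Small nuclear and nucleolar RNAs held the same share within counting error, at a ratio of 1.00 (0.923 to 1.09).

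A locus was called higher or lower where its RPM differed by at least 4-fold, with a pseudocount of 1 read, and at least 50 reads lay in the higher library. By this rule 118 loci were higher in the triple mutant than in rdr6-11, which is 16.4% of the 718 loci that reached 50 reads in one or both, and 3 loci were lower, which is 0.418%. Nearly all were protein-coding, 113 of the higher loci and all 3 lower ones, and they made up 33.7% and 0.896% of the 335 protein-coding loci with that depth. Loci that reached 10 reads in one or both libraries are called measured here. Among them the median log2 fold was 0.43 over all 4603 and 1.49 over the 2573 that code for protein, of which 86.0% lay above 0. Called higher were 4.39% of these measured protein-coding loci, and called lower 0.117%, the background for the gene lists below. The called loci are the upper end of this distribution.

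The higher loci held between 0 and 56 reads in rdr6-11, a range that the rule itself limits. Of the 118 loci, 25 had at most 3 reads there and 4 had none, while the highest in the triple mutant had 544. A fold of at least 16 was reached by 37 of them. The rule's edge was gradual: HTB4, a histone H2B, with 59 reads in the triple mutant and 14 in rdr6-11, lay just inside, and RBCS2B, a Rubisco small subunit, with 66 and 16, lay just outside.

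**Figure D2:**
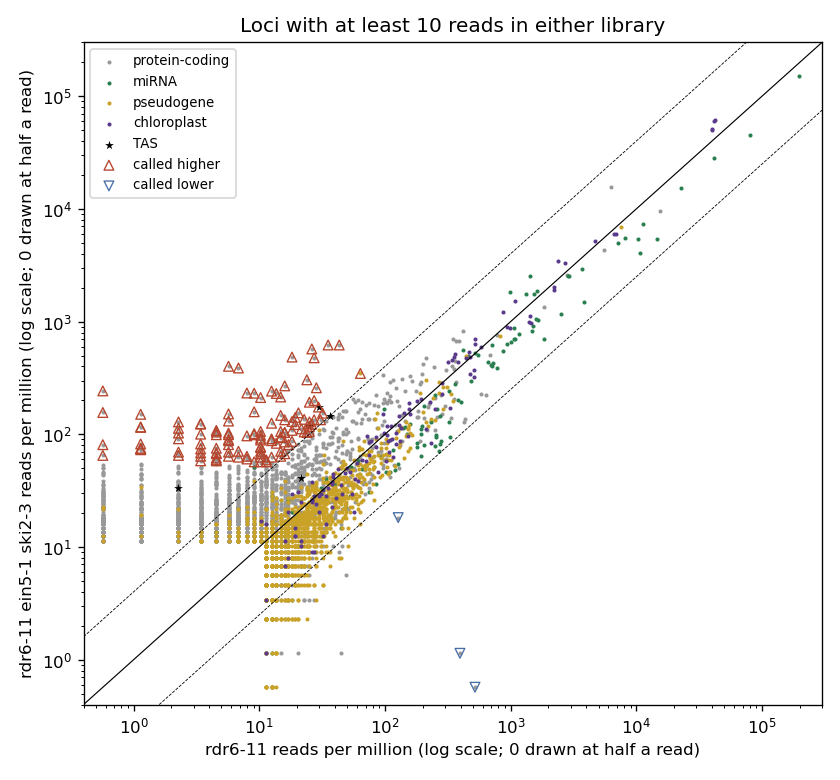
RPM in rdr6-11 ein5-1 ski2-3 (vertical, log scale) against rdr6-11 (horizontal, log scale) for the 4603 measured loci, coloured by class; dashed lines mark 4-fold. Called loci lie almost all at the upper left, 118 above and 3 below, while miRNA genes lie along and below the diagonal.

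EBF1 ranked first among the higher loci by fold with the pseudocount of 1 read, the measure behind every ranking by fold here. It encodes an F-box protein that targets the ethylene transcription factor EIN3 for degradation, and its mRNA is known to accumulate in ein5 mutants. It had 213 reads in the triple mutant and 0 in rdr6-11, at least 71.1-fold higher when a count of 0 is taken as 3 reads, the limit that it allows. The double mutant had 173 reads there and Col-0 had 6. Its paralogue EBF2 had 34 reads in the triple mutant and 2 in rdr6-11, a ratio of 17.0 (4.36 to 146), and stayed short of the 50-read minimum.

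The other measured ethylene genes held few reads. EIN2, the membrane protein at the centre of the pathway, had 17 reads in the triple mutant and 3 in rdr6-11, and EIN3 had 18 and 8. Of the 8 genes on the ethylene list 6 were measured, 1 was called higher and none lower, and their median log2 fold was 2.38, beside 1.49 over all measured protein-coding loci.

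Several loci of largest fold encode enzymes that add sugars. AT2G18560, a UDP-glycosyltransferase, had 137 reads in the triple mutant and 0 in rdr6-11, at least 45.7-fold higher. PARVUS, a glycosyltransferase needed for xylan synthesis in the cell wall, had 71 and 0 reads, and GT18, glycosyltransferase 18, had 57 and 0. AT1G06000, another UDP-glycosyltransferase, had 72 reads in the triple mutant and 1 in rdr6-11, a ratio of 72.1 with a counting interval of 12.5 to 2886. UGT75B1 was among the loci of largest RPM change, with 419 reads in the triple mutant and 24 in rdr6-11, 17.5-fold higher (11.6 to 27.6). Of 131 genes annotated as UDP-glycosyltransferases, 17 were measured, and 5 were called higher and none lower. Over all measured protein-coding loci 4.39% were called higher. The group was chosen after these values were seen, so its count cannot be set against that share.

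Transcription factors formed another part of the upper end. BBX16, a B-box zinc finger protein, had 132 reads in the triple mutant and 1 in rdr6-11, a ratio of 132 (23.3 to 5259). RAP2.4, an AP2/ERF factor, had 102 and 1, and GATA26 had 101 and 1. All 3 were also called higher in the double mutant over Col-0. CDF3, a DOF factor of the photoperiod pathway, had 90 and 2 reads in the triple mutant and rdr6-11, and TCP14, a regulator of growth, had 77 and 5. LBD37, a repressor of nitrate-responsive genes, had 113 reads in the triple mutant and 22 in rdr6-11, a call lost under totals without miRNA, TAS, organelle, rRNA and tRNA loci. These last 3 were named after their values were seen.

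Several of the remaining loci of large fold have no known function here. AT1G13360, annotated as uncharacterized, had 352 reads in the triple mutant and 5 in rdr6-11, 70.5-fold higher (29.9 to 218). AT4G32020, annotated as similar to a serine/arginine repetitive matrix protein, had 340 and 6, a ratio of 56.7 (25.8 to 156). AT1G12020, also uncharacterized, had 66 and 1. The rest of the 15 loci of largest fold were AT5G54940, a translation initiation factor of the SUI1 family, with 113 and 2 reads, the aspartyl protease AT3G52500 with 99 and 2, the leucine-rich repeat protein AT2G15320 with 65 and 1, and the purine transporter AZG1 with 64 and 1 in the triple mutant and rdr6-11.

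**Figure D3:**
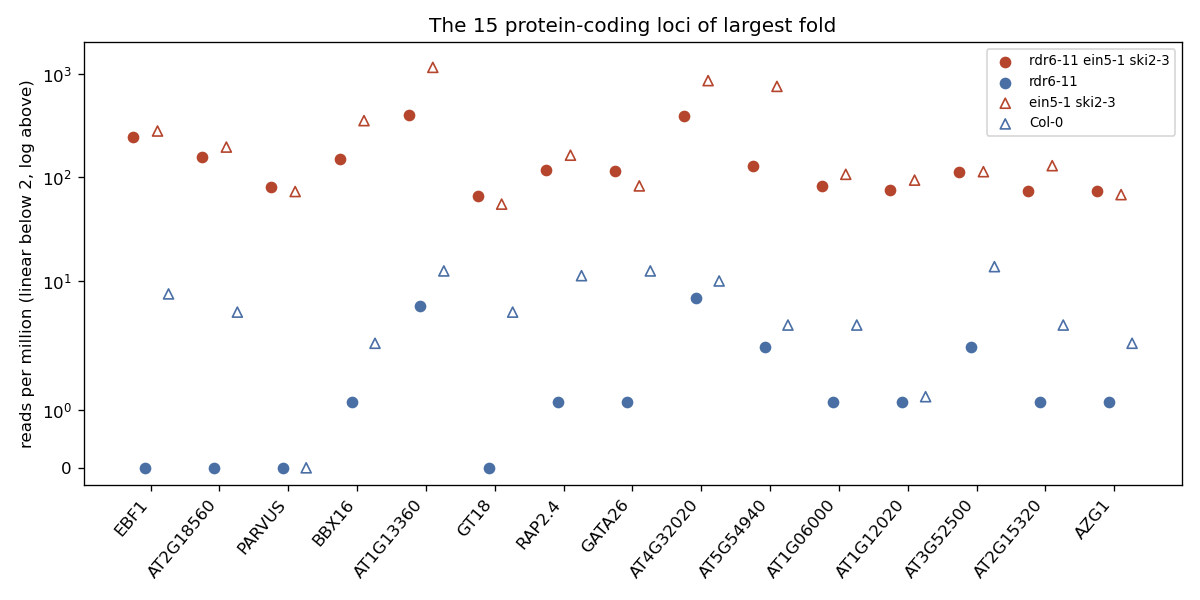
RPM (linear below 2, log above) at the 15 protein-coding loci called higher with the largest fold, in rdr6-11 ein5-1 ski2-3 and rdr6-11 (filled circles) and in ein5-1 ski2-3 and Col-0 (open triangles). At each locus the triple mutant lies above rdr6-11 and the double mutant above Col-0, from EBF1 with 213 and 0 reads in the rdr6-11 pair to AZG1 with 64 and 1.

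Among called loci the largest gains in RPM included PHO2, AK3 and a pair of transporters. PHO2, an enzyme that marks phosphate transporters for degradation and a target of miR399, had 544 reads in the triple mutant and 38 in rdr6-11, 14.3-fold higher (10.3 to 20.5). AK3, an aspartate kinase at the start of the synthesis of lysine, threonine and methionine, had 425 and 16, 26.6-fold higher (16.2 to 47.0). AT1G18000 and AT1G18010, both transporters of the major facilitator superfamily, had 544 and 31 and 502 and 23 reads in the triple mutant and rdr6-11. All 21-base words of these transporters occur elsewhere in the genome, so how their reads were divided is uncertain.

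Several other higher loci encode cell wall proteins, a grouping made after the values were seen. LRX3, a leucine-rich repeat extensin of the wall, had 236 reads in the triple mutant and 14 in rdr6-11, 16.9-fold higher (9.86 to 31.4). GAE6 and GAE1, epimerases that supply galacturonic acid for pectin, had 267 and 169 reads in the triple mutant and 21 and 22 in rdr6-11. The family member GAE4 had 14 and 0, and the remaining 3 of the 6 genes of this family were not measured. SOS5, a fasciclin-like arabinogalactan protein, had 186 reads in the triple mutant and 9 in rdr6-11.

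Genes of sulphur and polyamine metabolism were also among the higher loci, again named after their values were seen. SERAT2;1, which makes the precursor of cysteine, had 90 reads in the triple mutant and 5 in rdr6-11, and APR2, which reduces activated sulphate, had 81 and 9. ADC1, an arginine decarboxylase of polyamine synthesis, had 92 and 4, 23.0-fold higher (8.69 to 86.3). SAMDC had 114 reads in the triple mutant and 16 in rdr6-11, and the neighbouring identifier AT3G02468, called higher with 93 and 22 under the main scaling but not under TMM or under totals without miRNA, TAS, organelle, rRNA and tRNA loci, had nearly the same counts as SAMDC in the double mutant, 192 beside 193, and in Col-0, 6 beside 6. Whether both counted the same reads was not tested.

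Photosynthesis genes, which are highly expressed in leaves, had mostly more reads in the triple mutant but few calls. All 31 light-harvesting and photosystem genes on the list were measured, 1 was called higher and none lower, and their median log2 fold was 1.04, below the 1.49 of all measured protein-coding loci. The called one was PSAD-1, a stromal subunit of photosystem I, with 175 reads in the triple mutant and 24 in rdr6-11, 7.30-fold higher (4.75 to 11.7). For the Calvin cycle 18 of 20 genes were measured, with a median of 1.51, and RBCS1A, the main Rubisco small subunit, was called with 108 and 23 reads. That call was lost under TMM scaling and under totals without miRNA, TAS, organelle, rRNA and tRNA loci. Housekeeping genes had 7 of 12 measured, none called, and a median of 1.38.

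Lists tied to hormone and metabolic pathways gave single calls at most. Among genes of indole glucosinolate synthesis 6 of 8 were measured with a median log2 fold of 2.51, and CYP83B1, a cytochrome P450 of that pathway, was called higher with 92 reads in the triple mutant and 20 in rdr6-11, a call lost under both of these scalings. The circadian list had 2 of 11 genes measured, of which GRP7, an RNA-binding protein under clock control, was called higher with 57 and 2. Nitrogen assimilation had 10 of 13 measured with a median of 1.63 and no call. None of the 8 GH3 enzymes, which conjugate auxin, and none of the 7 stress and defence markers was measured.

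Genes of decay and silencing themselves had few reads. Of 11 decay genes only XRN3, a nuclear exonuclease, was measured, with 12 reads in the triple mutant and 7 in rdr6-11. The silencing list had 3 of 16 genes measured and no call. Its members were AGO4 with 17 and 6 reads, DCL1, the Dicer that makes miRNAs, with 17 and 0, and AGO2, described below, with 180 and 310 in the triple mutant and rdr6-11. The dark and senescence list had 1 of 6 measured, DIN10, a raffinose synthase, with 140 and 41. NLR immune receptors had 4 of 18 measured, a median of 0.96 and no call.

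The 3 lower loci included the largest fold in either direction, with the pseudocount. AT3G44570, annotated as a retrotransposon ORF-1 protein, had 0 reads in the triple mutant and 457 in rdr6-11, at least 152-fold lower. The adjacent AT3G44580, an uncharacterized gene, had 1 read and 347 reads, a ratio of 347 with a counting interval of 61.8 to 13728. In the second pair AT3G44570 had 140 reads in the double mutant and 458 in Col-0, a ratio of 0.398 (0.327 to 0.481), and AT3G44580 had 97 and 400, a ratio of 0.315 (0.24997 to 0.395). Both were thus lower there as well, but short of the 4-fold rule. The loci on either side were nearly empty: FAR8 had no read in the triple mutant or rdr6-11, and AT3G44590 had 0 and 1. The cause of the missing reads in the triple mutant was not tested, and it rests on 1 library.

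The third lower locus, AT1G06580, encodes a pentatricopeptide repeat (PPR) protein, a class that binds organelle RNA. It had 16 reads in the triple mutant and 112 in rdr6-11, 6.99-fold lower (4.12 to 12.7), and 26 in the double mutant and 93 in Col-0. As printed above, its transcript holds a site that pairs with miR400 at every base, and the miR400 family had 83 reads in the triple mutant and 222 in rdr6-11.

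Reads at miRNA families were mostly fewer in the triple mutant. Of the 18 families that reached 1000 reads in one or both libraries, 14 were lower and 4 higher, with a median ratio of 0.648 and a range from 0.380 to 1.803. The most abundant were miR159, which targets MYB factors, with 157135 reads in the triple mutant and 208081 in rdr6-11, and miR396, which targets growth-regulating factors, with 53015 and 90349. Scaled to miRNA reads, miR159, miR172 and miR169 turned above 0. No miRNA locus passed the 4-fold rule. Of the 38 families with at least 100 reads 32 were lower, 4 higher, and 2 had an interval that held 1.

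The lowest ratios among abundant families were at miR158 with 3624 reads in the triple mutant and 9540 in rdr6-11 (0.380), miR173 with 616 and 1616 (0.382), miR161 with 1315 and 3358 (0.392) and miR167 with 8335 and 18356 (0.455). Genes of miR167 differed, with ratios of 0.792 at MIR167a and 0.465 at MIR167b, which hold the printed sequence, and 0.368 at MIR167d, which holds another. miR173 is the trigger that cuts TAS1 and TAS2, miR161 targets PPR genes, and miR167 targets the auxin response factors ARF6 and ARF8. Against these, miR168, which targets AGO1, had 3818 reads in the triple mutant and 2120 in rdr6-11, a ratio of 1.803 (1.71 to 1.90). Both of its genes showed it, MIR168a with 2209 and 1250 and MIR168b with 1609 and 870. Unlike the other 3 higher families, miR168 was higher under every scaling tried. miR390, the trigger of TAS3, had 3166 and 2760 reads, miR393 1615 and 1388, and miR398 1071 and 853 in the triple mutant and rdr6-11. The genes of miR393 went opposite ways, with ratios of 0.388 (0.299 to 0.4996) at MIR393a and 1.31 (1.22 to 1.42) at MIR393b. Those of miR398 had 1.70 at MIR398a, 1.09 (0.946 to 1.25) at MIR398b and 1.34 at MIR398c.

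**Figure D4:**
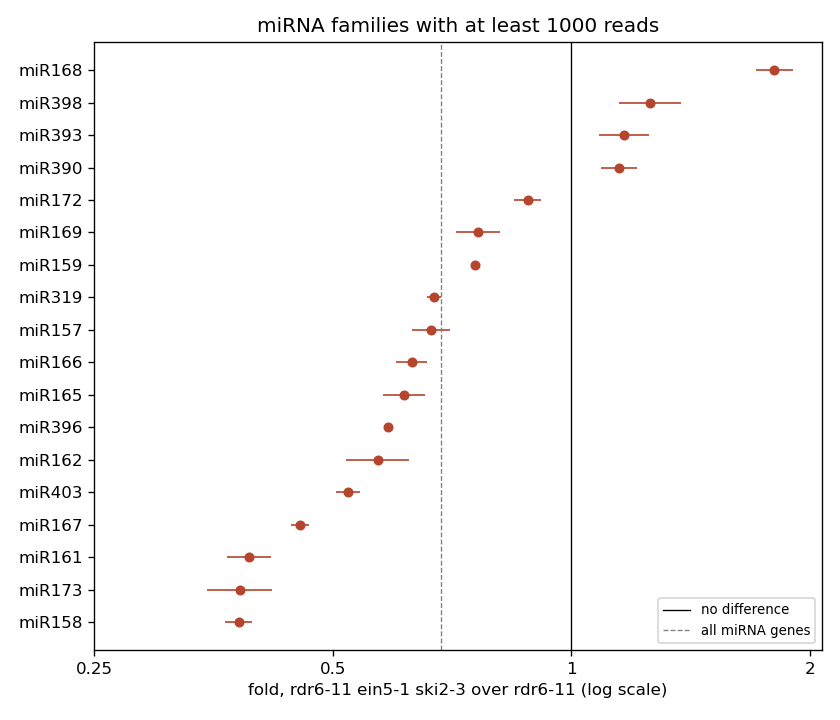
Ratio of reads in rdr6-11 ein5-1 ski2-3 over rdr6-11 (log scale) for the 18 miRNA families that reached 1000 reads; bars are exact 95% counting intervals, the dashed line the ratio of all miRNA genes (0.685). miR168 lies highest at 1.803 and miR158 lowest at 0.380.

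Loci whose transcripts closely match miRNAs mostly had fewer reads in the triple mutant. Strand and read size are not given, so reads of a miRNA placed at its own site could not be told apart from reads of the transcript. This limit holds for every locus with a site described here. An ungapped search of 26712 RefSeq transcripts with 121 mature miRNAs found 11 measured loci with a site of at most 1 mismatch. Their median log2 fold was -1.18 and 10 of 11 lay below 0, where 14.0% of all measured protein-coding loci did. The cut between at most 1 and 2 mismatches was made after the values were seen and the loci share miRNAs, so these are descriptions only.

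PPR genes with a site for miR161.2 of 1 mismatch made up much of that group. AT5G41170 had 112 reads in the triple mutant and 376 in rdr6-11, a ratio of 0.298 (0.239 to 0.369). AT1G63400 had 121 and 382, AT1G62590 had 196 and 563, and AT1G63330 had 199 and 515. These loci resemble one another in sequence, so reads may be shared among them. AGO2, an Argonaute of antiviral defence and the target of miR403, had 180 reads in the triple mutant and 310 in rdr6-11, a ratio of 0.581 (0.481 to 0.701), while the miR403 family itself had a ratio of 0.523.

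Among the targets of miR171, the GRAS factors HAM1, HAM2 and HAM3 share 1 site with no mismatch. HAM1 had 57 reads in the triple mutant and 92 in rdr6-11, HAM2 had 70 and 116, and HAM3, the exception above 0, had 107 and 106. SPL2, a target of miR156, had 10 and 24, and TOE2, a flowering repressor targeted by miR172, had 122 and 181.

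Loci whose best site had 2 mismatches did not lie low. The 11 such loci had a median log2 fold of 1.59, close to the 1.49 of all measured protein-coding loci, and 2 of them were called higher, PHO2 and ADC1, whose sites are printed above. Over the 113 higher protein-coding loci none held a site of at most 1 mismatch, and these 2, or 1.77%, held one of at most 2, where 0.855% of measured protein-coding loci and 0.311% of all transcripts did. PHO2 counts here only through miR399, which was added to the search as its known regulator. The miR399 family had 57 reads in the triple mutant and 76 in rdr6-11, short of the 100 asked of other families. The 1.77% can therefore not be set against those shares. On the list of 63 known miRNA targets 18 were measured, and those called higher were PHO2 and REV, a leaf polarity factor targeted by miR165 and miR166, with 51 reads in the triple mutant and 4 in rdr6-11.

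TAS loci had few reads in both libraries with the rdr6-11 mutation, and more of them in the triple mutant. The 8 loci together had 455 reads in the triple mutant and 111 in rdr6-11, a ratio of 4.104 (3.33 to 5.10). In the second pair they had 15530 reads in the double mutant and 57730 in Col-0. TAS2 had 153 and 26 reads and TAS3 had 103 and 22 in the triple mutant and rdr6-11, and both were called higher. The TAS3 call was lost under TMM scaling and under totals without miRNA, TAS, organelle, rRNA and tRNA loci. TAS1C with 128 and 32 and TAS1B with 29 and 2 were not called. Without read sizes, siRNAs and fragments of the TAS transcripts could not be told apart.

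Single-exon genes made up more of the higher loci than of the uncalled loci with reads. In the longest RefSeq transcript 63 of the 113 higher protein-coding loci, or 55.8%, had a single exon. Among the 198 uncalled protein-coding loci with at least 50 reads in the triple mutant 43 had one, or 21.7%, and among all 2573 measured ones 23.4% did. In transcripts of 1500 to 2500 nt, 62.7% of 67 higher loci and 20.5% of 73 uncalled ones had a single exon. In the double mutant over Col-0 the shares were 47.2% of 163 higher loci and 32.8% of 67 uncalled ones. GC content was alike, with medians of 42.4% in both sets. Of the 113 higher protein-coding loci 28, or 24.8%, overlap another annotated gene, beside 28.3% of the 198 uncalled and 26.5% of the measured ones. Strand is not recorded, so reads of the partner can be included.

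In plants with RDR6 the rule called more loci. In the double mutant over Col-0, 175 loci were called higher, 26.8% of the 653 that reached 50 reads, and 59 were called lower, 9.04%. Both comparisons called 70 loci higher, which is 59.3% of the 118 and 40% of the 175. The comparisons share no library, and whether they differ was not tested. Locus lengths implied by the deposited RPKM were identical within each pair and differed at 965 of 15610 loci between the triple and double mutants and at 445 of 12348 between rdr6-11 and Col-0, at a relative tolerance of 1e-06. Levels set side by side across the pairs carry this limit.

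The 70 shared loci had 10251 reads in the triple mutant and 755 in rdr6-11, a ratio of 13.6 (12.6 to 14.7), and 15609 in the double mutant and 730 in Col-0, a ratio of 27.8 (25.8 to 29.99). The rule picked these loci for being at least 4-fold higher in both pairs, so large ratios follow from it. GAE6, for example, had 267 and 21 reads in the first pair and 1984 and 36 in the second. PHO2 had 544 and 38 in the first pair and 386 and 31 in the second.

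The 105 loci called higher only over Col-0 by the rule had smaller ratios over rdr6-11, which the rule itself favours. They had 3602 reads in the triple mutant and 1675 in rdr6-11, a ratio of 2.15 (2.03 to 2.28), and 23495 in the double mutant and 1190 in Col-0, a ratio of 25.7. Over rdr6-11 their median log2 fold was 1.81 and 87.6% lay above 0. Of the 105 loci 94 code for protein, and some had few or no reads in the rdr6-11 pair. FMO, with 0 and 0 reads there, had a log2 fold of 0.0017 and so counted as above 0. The 1.49 and 86.0% of all measured protein-coding loci therefore come from an unlike set. AT5G57130, a Clp-domain protein on the SMXL list, had 13 reads in the triple mutant and 4 in rdr6-11, against 3617 in the double mutant and 3 in Col-0. The SMXL list, of which only some members are repressors of strigolactone or karrikin signalling, had 3 of 8 members measured and none called in the rdr6-11 pair.

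For the 48 loci called higher only over rdr6-11 by the rule, the median log2 fold over Col-0 was 1.59, and 21 of them were at least 4-fold higher in the double mutant but short of 50 reads. The 59 loci lower in the double mutant had a median log2 fold of -0.45 in the rdr6-11 pair. PPR genes chosen as siRNA sources, 9 of 22 measured, had a median of -0.84 with none called. That list was written with earlier results of these data known.

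**Figure D5:**
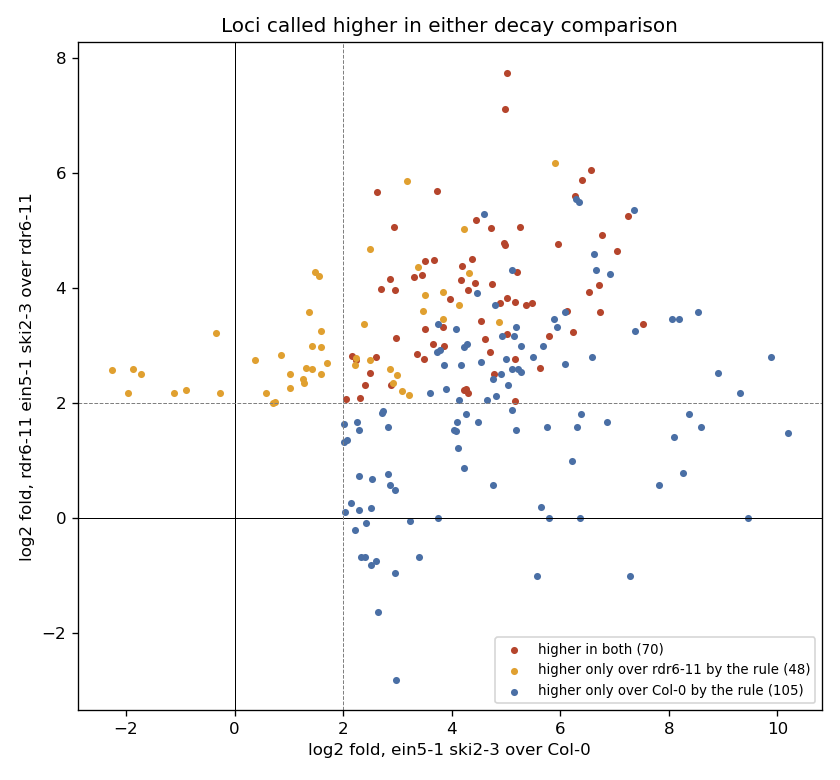
Log2 fold of rdr6-11 ein5-1 ski2-3 over rdr6-11 (vertical) against log2 fold of ein5-1 ski2-3 over Col-0 (horizontal) for loci called higher in either comparison, with dashed lines at 4-fold. The 70 loci called in both lie at the upper right, and the 105 called only over Col-0 spread lower. Of these, 87.6% lie above 0, a share that includes loci with few or no reads in the rdr6-11 pair.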

How the data were processed

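Small RNA libraries of 4 genotypes, 1 each, were grouped by their genotype labels. Per the file headers, the deposited table gives the authors' read count and the authors' RPKM for each locus; per the submitters' processing notes, CASAVA 1.8.2, BWA and TAIR9 are listed with no role. Trimming, read size, strand and the treatment of reads with several matches were not given. RPKM served only to check locus lengths. Folds were computed from counts scaled to column totals (Python 3.11.15, pandas 2.3.3, numpy 2.4.6); printed ratios carry no pseudocount, log2 folds carry 1 read. Intervals (95%) are exact conditional binomial for ratios and Clopper-Pearson for shares (scipy 1.17.1). The call rule was tested on simulated data, where it held only while the library total stayed nearly fixed, since changes in the most abundant loci shift every other fold. Of the loci, 32835 matched TAIR10.1 identifiers, used for names, structure and sequences; builds differ, so no coordinates are given. Named are the 15 higher and 8 lower protein-coding loci of largest fold (3 were lower), the 8 called loci of largest RPM change, members of 19 gene lists and miRNA families with at least 1000 reads. Lists and loci were chosen with earlier results of these data known. Alternatives changed scaling (including TMM, edgeR 4.0.16 in R 4.3.3), read minimum, fold, pseudocount, interval and loci kept.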

Additional observations from a re-analysis of the deposited data

Results flagged for a closer look

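At 10 loci and 1 class the ratio of the triple mutant over rdr6-11 lay on the other side of 1 from that of the double mutant over Col-0, with the counting intervals of both away from 1 and a difference of at least 2-fold in each, a condition set after the data were seen. Only the called loci, the measured members of the gene lists, the classes and the named miRNA families were screened, so 10 is not a count over the whole table. With 1 library for each genotype the difference was not tested. The TAS class had a ratio of 4.104 over rdr6-11 and 0.350 over Col-0. Its members TAS1B, TAS2, TAS3 and TAS1C had 14.5, 5.89, 4.69 and 4.00 over rdr6-11, and 0.445, 0.302, 0.258 and 0.394 over Col-0. ERD6, a sugar transporter, had 6.39 over rdr6-11 and 0.217 over Col-0, from 83 and 13 and from 3 and 18 reads. TCH3, a calmodulin-like protein, had 6.32 and 0.163, from 82 and 13 and from 3 and 24 reads. ATR2, a P450 reductase, had 4.76 and 0.433, from 76 and 16 and from 10 and 30. DIN10 had 3.42 over rdr6-11 and 0.0661 over Col-0, from 140 and 41 and from 3 and 59 reads. CP12-2, a regulator of the Calvin cycle, had 2.61 and 0.249, from 253 and 97 and from 9 and 47. Ratios that rest on so few reads in the double mutant are poorly known. SPL2 went the other way, with 0.417 over rdr6-11 and 3.00 over Col-0, from 10 and 24 and from 60 and 26 reads.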

How the results depend on the processing

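Beside 118 higher and 3 lower loci and 70 shared with the double mutant, counts of lower loci were 7 under TMM and 13 under totals without miRNA, TAS, organelle, rRNA and tRNA loci, which gave 103 and 98 higher and put the higher share of calls at 88.3% under the second, beside 97.5%. Scaling to miRNA reads gave 158 higher loci and totals without organelle and rRNA loci 134. Minimums of 20, 100 and no reads gave 380, 45 and 3431 higher, 207, 27 and 1031 shared, and, for 20 and none, 25 and 496 lower. A fold of 2 gave 219 higher and 69 lower, a fold of 8 gave 70 higher and 45 shared, and requiring the interval to pass 4-fold left 77 higher. Scaling shifted every log2 fold by 0.00 (median of ratios), -0.26 (TMM), 0.55 (miRNA reads), -0.40 (totals without those classes) and, added after the data were seen, 0.22 (totals without organelle and rRNA loci). Under miRNA reads the log2 ratios of pseudogenes, miR159, miR172 and miR169 turned to 0.12, 0.14, 0.36 and 0.16. Under TMM rRNA, tRNA, miR390 and miR393 turned to -0.0027, -0.12, -0.063 and -0.043. Under totals without those classes chloroplast, rRNA, tRNA, miR390, miR393 and miR398 turned to -0.046, -0.14, -0.26, -0.20, -0.18 and -0.068, and under the added totals miR172 turned to 0.039. Each scaling moves all loci by 1 constant, which is what turned these values. No paired analysis was possible because each genotype has 1 library and the labels carry no replicate numbers. Loci at 0 to 3 reads in rdr6-11 limit how well a fold is known.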
